A study of Mus musculus with 6 samples.

Results

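Autophagy and lysosome genes were followed in myotubes of C2C12, a line of mouse myoblasts that join into multinucleated fibres in low serum. The set held 40 genes chosen by name out of the 46983 genes of the read-count table: 26 of the autophagy machinery, 12 of the lysosome, and the transcription factors Tfeb and Tfe3. The tested myotubes received corticosterone, the main glucocorticoid of rodents, at 1e-07 M for 24 h, and the control myotubes received ethanol at 1 µL/mL for 24 h. All were differentiated wild-type C2C12 cells kept in horse serum, and each treatment has 3 libraries, stated in the study's design to be separate biological replicates. RNA was poly(A)-selected. C2C12 is a single cell line, so the spread covers cultures and not animals.

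Autophagy encloses cell material in a double membrane and delivers it to lysosomes, acid compartments that break it down. A kinase complex starts the process, a lipid kinase marks the membrane, conjugation enzymes attach ATG8 proteins to it, and cargo receptors bind both ATG8 proteins and the material to be removed. Tfeb and Tfe3 bind CLEAR elements in the promoters of lysosome genes. In skeletal muscle the pathway clears damaged mitochondria and proteins, and glucocorticoids are among the signals known to act on muscle proteolysis.

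The labels have to be read with care. Fkbp5, a glucocorticoid-induced co-chaperone of the glucocorticoid receptor, gave 151, 36.9 and 135 CPM (read counts scaled to a common library size with TMM factors) in corticosterone 1, 2 and 3, named by label, against 36.9, 177 and 35.4 CPM in those labelled vehicle 1, 2 and 3. Tsc22d3 and Per1, also induced by glucocorticoids, split the libraries the same way, with corticosterone 2 low and vehicle 2 high. Overlap was therefore looked at for every member by label and also in a second arrangement. It sets corticosterone 1, corticosterone 3 and vehicle 2 (more Fkbp5) beside corticosterone 2, vehicle 1 and vehicle 3 (less Fkbp5). That second arrangement was read from the measured values, so it carries no mean, fold or test here. All 8 myotube markers looked at were present, at a summed 12327 to 13932 CPM under the corticosterone label and 8027 to 11975 CPM under the vehicle label. Of 10 markers of macrophages, adipocytes, endothelial cells and neurons, 5 were at 0 in every library and none passed 0.524 CPM.

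Short motifs were looked for in the members' promoters. RefSeq promoters (GRCm38.p6, 250 bases before to 50 after the start) were matched for 32 of the 40 members, 36 promoters in all. The letters CACGTG, the core of the CLEAR element and its own reverse complement, occurred in 10 of these 36 promoters (27.8%), against 7.15% of all 32851 promoters. The longer core TCACGTGA, which contains the shorter one and also reads the same on both strands, occurred in 5 of 36 (13.9%), against 0.974% of all promoters. Its holders were 4 of the 10 lysosome members and 1 of the 20 autophagy members with a promoter. The letters AGAACA, part of the glucocorticoid receptor's element, on either strand, occurred in 3 of 36 (8.33%), against 19% of all promoters, and TGTTTAC, a forkhead factor site searched on both strands, in 0 of 36, against 3.65%. Most member promoters thus held neither core. The CLEAR element is known from lysosome genes and the members were chosen by name, so a higher share was to be expected from that choice. A match is a description of the letters in these windows and no evidence of binding. The 5 stretches with the longer core are shown because this motif is the one recognised by Tfeb, with Lamp1 added for its 4 copies of the shorter core between 61 and 15 bases before the start. Each is given 5′ to 3′ on the gene's strand. Capitals mark TCACGTGA in the first 5 and CACGTG in Lamp1, and the stretches of Atg3 and Mcoln1 hold a further CACGTG in lower case.
Gla, chrX:134601163-134601255, minus strand: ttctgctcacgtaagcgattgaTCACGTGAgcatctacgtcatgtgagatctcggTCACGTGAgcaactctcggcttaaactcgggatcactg
Mcoln1, chr8:3500443-3500510, plus strand: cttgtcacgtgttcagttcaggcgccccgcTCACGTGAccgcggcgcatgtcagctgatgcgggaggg
Atp6v0d1, chr8:105566031-105566098, minus strand: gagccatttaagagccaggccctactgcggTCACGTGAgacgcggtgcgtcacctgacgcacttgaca
Atp6v1a, chr16:44139354-44139421, minus strand: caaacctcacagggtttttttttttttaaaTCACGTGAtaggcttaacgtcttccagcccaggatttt
Atg3, chr16:45158727-45158794, plus strand: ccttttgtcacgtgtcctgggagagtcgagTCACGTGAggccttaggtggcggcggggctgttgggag
Lamp1, chr8:13159070-13159181, plus strand: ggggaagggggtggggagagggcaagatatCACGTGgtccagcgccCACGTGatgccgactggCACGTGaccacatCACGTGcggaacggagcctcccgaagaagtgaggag

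All 40 members were measured well above the detection floor. Their counts ran from 274 to 38172 per library, while 3 counts equalled 0.103 to 0.125 CPM, and all 40 passed the filter on low counts. Per kilobase of annotated exon, the levels were led by the lysosome membrane proteins Lamp1, at 401 ± 11.98 CPM per kb, and Cd63, at 334 ± 32.2 CPM per kb (SD over the 6 libraries). Next came the cargo receptor Sqstm1, the ATG8 genes Map1lc3a and Gabarap, and the lysosomal enzyme Hexa, at 176 ± 12.2, 174 ± 8.13, 158 ± 10.6 and 124 ± 16.2 CPM per kb, and Sqstm1 and Map1lc3a lay within each other's spread. The lowest were Gla, Tfe3 and Atg7, at 4.36 ± 0.408, 4.45 ± 0.357 and 4.51 ± 0.256 CPM per kb, which also lay within each other's spread. Exon lengths were taken over all annotated transcripts, so genes with long minor transcripts appear lower than they would per expressed transcript.

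Their levels varied little between libraries. The ratio of the highest to the lowest library ran from 1.05 in Pik3c3 to 1.45 in Bnip3, with a median of 1.22 over the members. The same median was 1.28 over the 9426 genes with a mean of at least 10 CPM and 1.39 over all 14450 genes tested. The plot of CPM against each gene's mean shows these small departures library by library.

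**Figure D1:**
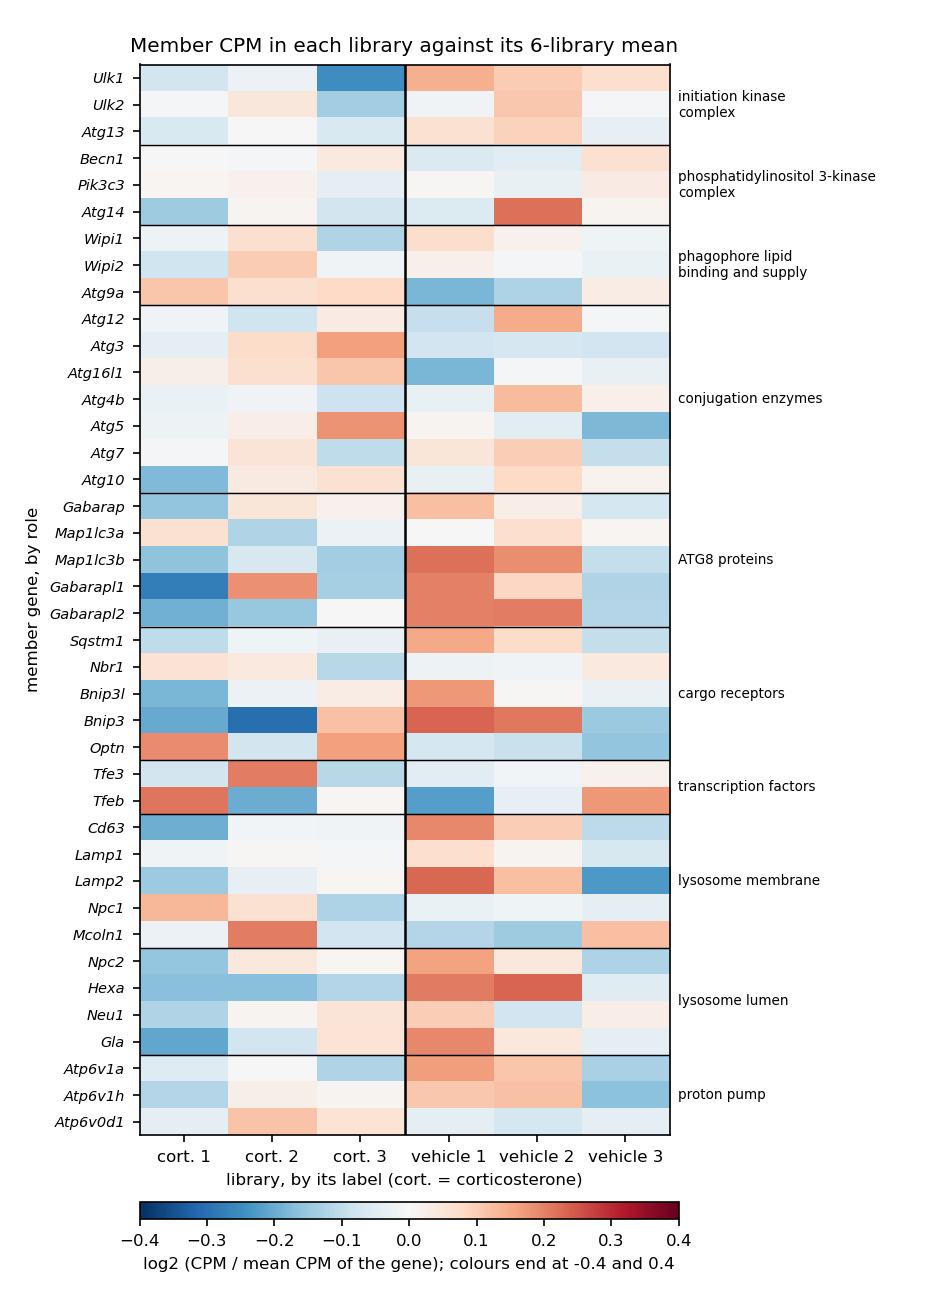
CPM of the 40 members in each of the 6 libraries, as log2 of the ratio to the gene's mean over the libraries, with rows grouped by role and the libraries labelled corticosterone (cort.) left of those labelled vehicle. Vehicle 1 and 2 are the 2 highest libraries for 13 members, among them Hexa, Lamp2, Bnip3 and Map1lc3b, and corticosterone 1 is the lowest library for 14 of the 40 members.

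By the labels, no listed autophagy or lysosome gene passed the test between corticosterone and vehicle. edgeR's quasi-likelihood test called 0 of the 40 members, and it called 0% of the 14450 genes tested. DESeq2 and limma-voom also called 0 members, and over all genes DESeq2 called 138 and limma-voom 0. At an unadjusted p under 0.05 there were 0 members higher, against 5.55% of all genes, and 3 lower (7.5%), against 6.26% of all genes. Those 3 were Hexa, Ulk1 and Map1lc3b. Of the 40 log2 differences, 28 were negative (70%) and 12 positive, where 49.18% of all genes tested were negative. With library totals alone 32 were negative, at a median of -0.04 over all genes. In the main fit the members' median was -0.05, against 0.004 over all genes tested. The median was -0.05 for the 26 autophagy members and -0.06 for the 12 lysosome members. These medians moved with single libraries. That of all 40 was -0.079 without corticosterone 2, -0.031 without vehicle 1, -0.027 without vehicle 2 and -0.083 without vehicle 3. That of the lysosome members was -0.0098 without corticosterone 1, -0.091 without corticosterone 2, -0.011 without vehicle 1 and -0.15 without vehicle 3. That of the autophagy members was -0.084 without corticosterone 2, -0.027 without vehicle 2 and -0.083 without vehicle 3. The data bound the differences closely: 38 of the 40 intervals of 95% lay within 0.5 log2 units of 0, and the farthest bound was -0.56 in Bnip3. These intervals are not adjusted for the number of genes, and they compare groups in which the labels of 2 libraries are in doubt.

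**Figure D2:**
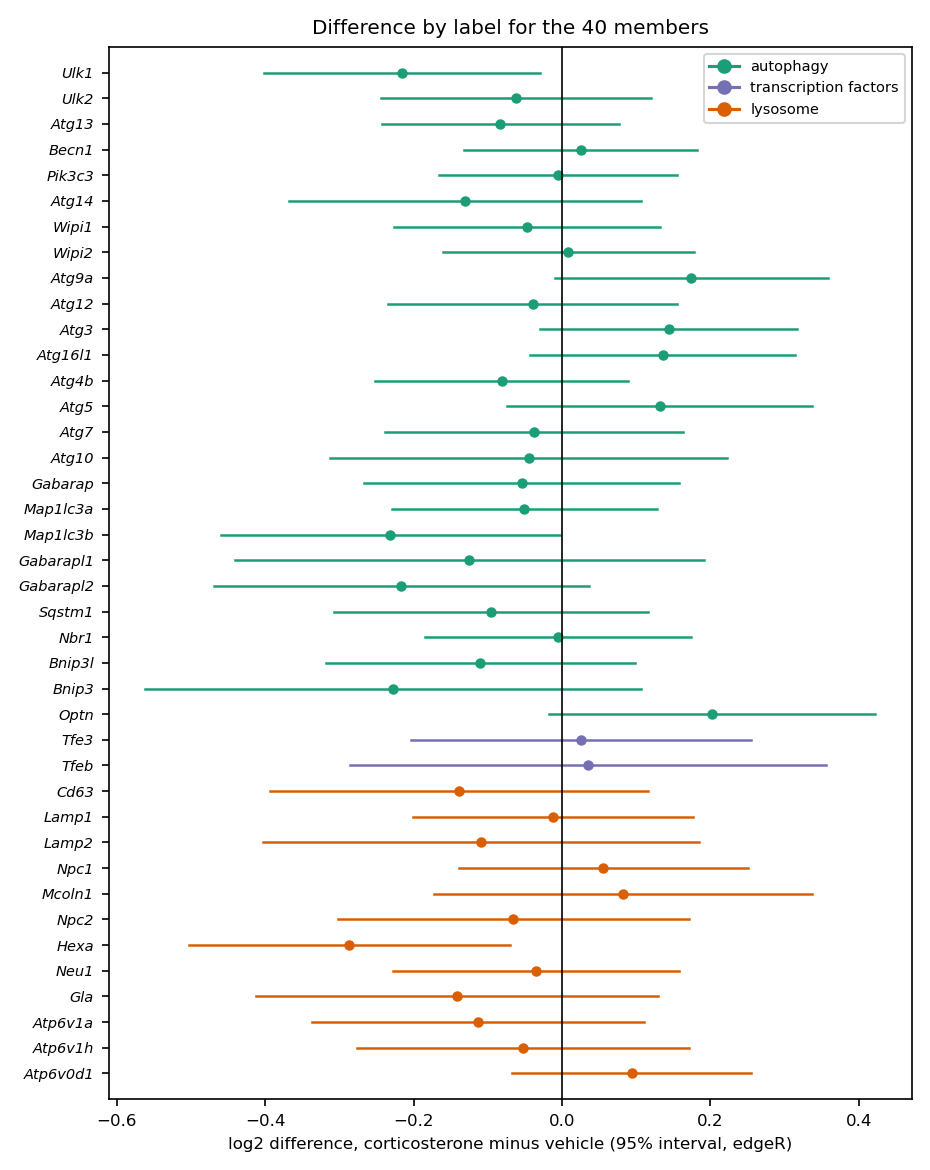
Log2 difference, corticosterone minus vehicle, with its 95% interval from edgeR, for the 40 members in order of role; colours separate autophagy machinery, transcription factors and lysosome. The points lie between -0.29 (Hexa) and 0.20 (Optn), and 37 of the 40 intervals hold 0.

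The groups did not overlap for 6 members by label. Atg3, Atg9a, Atg16l1 and Atp6v0d1 were higher in all 3 libraries labelled corticosterone, 4 of 40 (10%), where 8.41% of all genes were, and Ulk1 and Hexa were lower, 2 of 40 (5%), where 8.19% of all genes were. Beside the shares of all genes, neither count is a result about the members. They also depend on the scaling: with library totals alone, 0 members were higher and 7 lower without overlap, and over all genes 5.49% were higher and 11.8% lower. With the libraries ordered by Fkbp5, no member separated: 0 of 40 lay higher in the 3 libraries with more Fkbp5, where 4.89% of all genes did, and 0 of 40 lay lower, where 4.74% of all genes did. Pik3c3 and Atg12 came closest, and Atg12 separated when genes with any count were kept in the scaling, as 94.9, 97.3 and 107 CPM beside 90.6, 89.8 and 94.6 CPM.

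The initiation complex holds the kinases Ulk1 and Ulk2 and their partner Atg13. The kinase Ulk1 lies on chromosome 5 at 110784488 to 110810097 (GRCm38). It gave 96.0, 99.5 and 85.2 CPM in corticosterone 1, 2 and 3, against 112, 108 and 106 CPM in vehicle 1, 2 and 3. All 3 libraries labelled corticosterone lay below all 3 labelled vehicle. Its mean was 93.6 ± 7.49 CPM in corticosterone and 109 ± 2.86 CPM in vehicle (SD, n = 3 each). The log2 difference was -0.22 ± 0.08 (SE), with an adjusted p of 0.386 by edgeR. Ulk2, its close relative, gave 93.1, 96.5 and 84.9 CPM against 92.7, 101 and 93.1 CPM, and the labels overlapped. In both kinases corticosterone 3 was the lowest library. Atg13, which tethers the kinases, stayed between 75.3 and 83.9 CPM.

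The lipid kinase complex had the lowest median ratio of highest to lowest library of the 10 roles, 1.09. Pik3c3, the catalytic subunit, gave 34.2, 34.4 and 33.2 CPM in the libraries labelled corticosterone, against 34.0, 33.3 and 34.7 CPM in those labelled vehicle, with a log2 difference between -0.17 and 0.15 (95% interval). Becn1, its regulatory partner, gave 77.1, 76.8 and 79.2 CPM against 74.0, 74.7 and 80.3 CPM, also overlapping. Of the annotated exon bases of Becn1, 43.9% are shared with Cntd1 on the other strand, and reads from there cannot be told apart without strand. Atg14, which directs the complex to autophagy, ran from 21.3 CPM in corticosterone 1 to 27.3 CPM in vehicle 2.

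Wipi1 and Wipi2 bind the lipid that this kinase makes, and Atg9a takes part in the lipid supply of the growing membrane. Wipi1 gave 189, 200.4 and 177 CPM in corticosterone libraries, against 201, 194 and 189 CPM in vehicle libraries. Wipi2 gave 96.6, 109 and 101 CPM against 103, 101 and 100.0 CPM. Both overlapped. Atg9a, on chromosome 1 at 75180860 to 75192196, reached 61.2, 59.2 and 59.9 CPM against 49.9, 52.0 and 57.9 CPM, higher in all 3 libraries labelled corticosterone. Its log2 difference was 0.17 ± 0.08 (SE, edgeR adjusted p = 0.436), with vehicle 3 the nearest to the corticosterone libraries. Other annotated genes share 32.6% of its exon bases.

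Among the conjugation enzymes, Atg3, the E2-like enzyme that hands ATG8 proteins to lipid, gave 82.8, 89.3 and 95.2 CPM in corticosterone libraries, against 80.5, 81.0 and 80.4 CPM in vehicle libraries. The 3 vehicle libraries lay almost level, below all 3 corticosterone libraries. The log2 difference was 0.14 ± 0.07 (SE, edgeR adjusted p = 0.476). Atg16l1, the scaffold of the ligase, gave 59.3, 61.0 and 62.9 CPM against 51.4, 58.2 and 57.2 CPM, also without overlap, and differed by 0.14 ± 0.08 (edgeR adjusted p = 0.508). Its partner Atg5 differed by 0.13 ± 0.09, and its libraries overlapped at 37.2 to 47.7 CPM. Atg12, which is joined to Atg5, gave 94.8, 90.6 and 98.0 CPM against 89.8, 106 and 95.1 CPM. Atg7, the E1-like enzyme, and Atg4b, the protease that trims ATG8 proteins, stayed within 29.3 to 33.6 CPM and 52.4 to 60.6 CPM. Atg10, the E2-like enzyme for Atg12, had the lowest CPM of the members, at 10.02 to 11.96 CPM, without correction for exon length.

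The ATG8 genes differed among themselves in the order of their libraries. Map1lc3b, which encodes LC3B and lies on chromosome 8 at 121590361 to 121598760, gave 149.7, 159.9 and 152 CPM in corticosterone libraries, against 195, 190.4 and 157 CPM in vehicle libraries. Vehicle 1 and 2 stood apart, and vehicle 3 lay among the corticosterone libraries. The means were 154 ± 5.34 CPM in corticosterone and 181 ± 20.8 CPM in vehicle (SD, n = 3 each). They differed by -0.23 ± 0.10 log2 units (SE), at an edgeR adjusted p of 0.416. Gabarapl2 had the same shape, at 49.9, 51.2 and 57.0 CPM against 65.4, 65.7 and 52.5 CPM, and differed by -0.22 ± 0.11 (edgeR adjusted p = 0.463). Map1lc3a, which encodes LC3A, did not have it, at 214, 189 and 202 CPM against 205, 215 and 207 CPM. Gabarap gave 261, 301 and 295 CPM against 316, 296 and 277 CPM, with corticosterone 1 lowest and vehicle 1 highest. Gabarapl1 was lowest in corticosterone 1, at 63.6 CPM, and highest in vehicle 1, at 88.6 CPM, with corticosterone 2 at 87.4 CPM. Processed pseudogenes nearly identical to Map1lc3b held 6.85 to 8.54% of the summed counts, and with them added it gave 162, 172 and 164 CPM against 213, 207 and 168 CPM. Those of Gabarapl2 held 0.729 to 1.36%.

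Of the cargo receptors, Sqstm1, which encodes p62, gave 551, 584 and 578 CPM in corticosterone libraries, against 656, 622 and 553 CPM in vehicle libraries. Vehicle 1 and 2 were highest, and vehicle 3 lay beside corticosterone 1. Mrnip on the other strand shares 17.3% of its exon bases. Nbr1, a receptor related to p62, gave 255, 252 and 227 CPM against 242, 243 and 252 CPM, with corticosterone 3 lowest. Optn, a receptor for ubiquitin-marked mitochondria, gave 32.4, 27.1 and 31.9 CPM against 27.1, 26.8 and 25.5 CPM. Corticosterone 1 and 3 stood above the other 4 libraries, and vehicle 2, the third library with more Fkbp5, did not. Its log2 difference of 0.20 ± 0.09 was the highest of the members (SE, edgeR adjusted p = 0.441). The mitochondrial receptor Bnip3 varied most of all members, at 49.3, 46.0 and 61.4 CPM against 66.7, 65.6 and 51.1 CPM, and its relative Bnip3l ranged from 98.6 to 126 CPM. A transcribed pseudogene took 6.91 to 9.34% of the summed counts of Bnip3l. The values of Bnip3 were chosen for printing after they were seen.

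**Figure D3:**
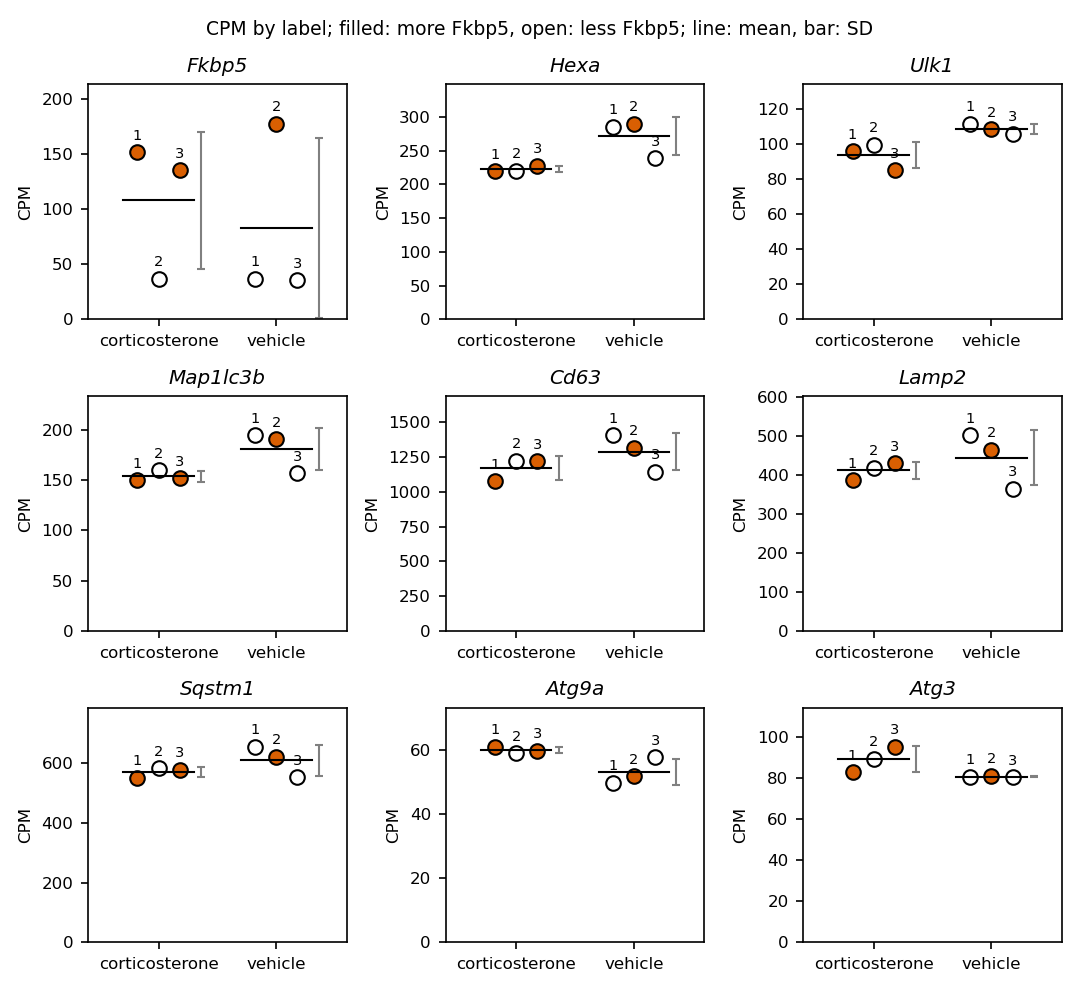
CPM of Fkbp5 and 8 members in each library, numbered by replicate, with corticosterone left of vehicle; filled points are the 3 libraries with more Fkbp5, open points those with less, lines are means and grey bars the SD (n = 3). Filled and open points separate for Fkbp5 (135 to 177 CPM beside 35.4 to 36.9 CPM) and mix in all 8 members shown.

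Both transcription factors overlapped between the labels and between the Fkbp5 sides. Tfeb gave 38.0, 28.6 and 33.0 CPM in corticosterone libraries, against 28.2, 32.1 and 37.0 CPM in vehicle libraries. Corticosterone 1 and vehicle 3 were highest, 1 library of each label and 1 from each side of the Fkbp5 arrangement. Tfe3 gave 39.2, 47.5 and 38.1 CPM against 39.9, 40.9 and 41.7 CPM, with corticosterone 2 alone above the rest. The 95% intervals of their log2 differences were -0.29 to 0.36 and -0.20 to 0.26. The mRNA level does not report on the nuclear entry by which these factors are controlled.

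Of the 5 lysosome membrane genes, all overlapped between the labels. Lamp1, a membrane protein of the lysosome, gave 1062, 1076 and 1066 CPM in corticosterone libraries, against 1125, 1081 and 1026 CPM in vehicle libraries. The 95% interval of its log2 difference was -0.20 to 0.18. Lamp2, its partner in fusion with autophagosomes, gave 387, 419 and 431 CPM against 503, 466 and 366 CPM, so that the highest and the lowest library both carried the vehicle label. The values of Lamp2 were chosen for printing after they were seen. Cd63, a tetraspanin of late endosomes, gave 1074, 1221 and 1218 CPM against 1407, 1316 and 1145 CPM, with vehicle 1 and 2 highest and corticosterone 1 lowest. The transcribed pseudogene Cd63-ps held 10.6 to 11.2% of the summed counts in every library, and the order of the libraries was 1210.1, 1365 and 1364 CPM against 1578, 1478 and 1283 CPM with it added. The cholesterol exporter Npc1 stayed within 56.8 to 67.9 CPM. The calcium channel Mcoln1, whose promoter stretch is shown above, ran from 49.1 to 62.5 CPM, with corticosterone 2 and vehicle 3 highest.

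In the lysosome lumen, Hexa, the alpha subunit of beta-hexosaminidase on chromosome 9 at 59539540 to 59565109, had the smallest p of all 40 members. It gave 219.6, 219.9 and 228 CPM in corticosterone libraries, against 285, 289.8 and 239 CPM in vehicle libraries. All 3 corticosterone libraries lay below all 3 vehicle libraries, with vehicle 3 nearest to them. The means were 222 ± 4.63 CPM in corticosterone and 271 ± 28.1 CPM in vehicle (SD, n = 3 each), a log2 difference of -0.29 ± 0.09 (SE), with an edgeR adjusted p of 0.364 and a DESeq2 adjusted p of 0.17. The libraries with more Fkbp5 held 219.6, 228 and 289.8 CPM and those with less held 219.9, 285 and 239 CPM, so the difference did not follow Fkbp5. Tmem202 on the other strand shares 12.8% of its exon bases. Npc2, a cholesterol carrier, gave 365, 418 and 409 CPM against 455, 419 and 373 CPM. The sialidase Neu1 ranged from 42.7 to 49.6 CPM and the galactosidase Gla from 12.3 to 16.3 CPM, both lowest in corticosterone 1 and highest in vehicle 1.

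The proton pump acidifies the lysosome. Atp6v1a, its catalytic subunit, gave 238, 246 and 226 CPM in corticosterone libraries, against 276, 266 and 225 CPM in vehicle libraries. Atp6v1h, a regulatory subunit, gave 83.2, 91.6 and 90.8 CPM against 97.1, 97.8 and 80.5 CPM. In both, vehicle 1 and 2 were highest and vehicle 3 was lowest. Atp6v0d1, a subunit of the membrane part, had another order, at 85.1, 94.6 and 90.7 CPM against 85.1, 83.2 and 85.0 CPM, with the lowest corticosterone library level with the highest vehicle library.

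Many of these genes shared their highest libraries, vehicle 1 and 2, which carry the same label and differ in Fkbp5. Vehicle 1 was the highest library for 15 of the 40 members (37.5%), against 19.31% of all genes tested, and vehicle 2 for 11 (27.5%), against 15.07%. Corticosterone 1 was the lowest for 14 (35%), against 14.95%. Vehicle 1 and 2 were the 2 highest libraries for 13 members (32.5%), where this held for 16.8% of all genes tested. The 13 were Ulk1, Atg13, Map1lc3b, Gabarapl2, Sqstm1, Bnip3, Lamp1, Lamp2, Cd63, Hexa, Npc2, Atp6v1a and Atp6v1h, 6 of 26 in autophagy and 7 of 12 in the lysosome. The median lysosome member lay -0.11, 0.01 and 0.001 log2 units from its 6-library mean in corticosterone 1, 2 and 3, and 0.14, 0.05 and -0.05 in vehicle 1, 2 and 3. For the autophagy members these medians were -0.03, 0.02 and -0.02, against 0.01, 0.07 and -0.02. Below these 2 libraries the 13 differed. Vehicle 3 came next in Ulk1 and Hexa, the 2 of them without overlap by label, and lowest in Lamp1, Lamp2, Atp6v1a and Atp6v1h. The pattern was noticed after the values were seen and is given as a description.

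Myotube markers were low in the same 2 libraries. All 8 markers, Myog, Mymk, Mymx, Ckm, Acta1, Myh3, Tnnt3 and Ttn, had vehicle 1 and 2 as their 2 lowest libraries. The same held for 18.4% of all genes tested. Their summed level was 13932, 13172 and 12327 CPM in corticosterone libraries, against 8027, 9258 and 11975 CPM in vehicle libraries. The order among the corticosterone libraries differed by marker: Ttn gave 3564, 3195 and 1687 CPM there, and Acta1 4683, 4461 and 4811 CPM. The 5 markers of myoblasts or dividing cells summed to 211, 196 and 189.98 CPM against 223, 214 and 235 CPM, with vehicle 3 highest. The sum joins genes that differed: the cell-cycle genes Ccna2 and Top2a lay lower by label without overlap, at log2 differences of -0.47 and -0.31. Neither passed edgeR's test (adjusted p = 0.364 for both), and DESeq2 called both, with adjusted p of 0.0137 and 0.0398. The cell-cycle gene Mki67 differed by -0.29 but overlapped by label, at 37.2, 46.1 and 34.1 CPM against 48.0, 43.9 and 51.8 CPM. DESeq2 did not call it (adjusted p = 0.396). In the Fkbp5 arrangement Mki67 lay lower without overlap, as 4.74% of all genes did. Pax7 and Myf5, genes of undifferentiated muscle cells, differed by 0.09 and 0.14 and overlapped by label. Ordered by Fkbp5, Pax7 overlapped and Myf5 lay higher without overlap, as 4.89% of all genes did. Its values there were 29.8, 27.3 and 22.2 CPM beside 11.9, 18.2 and 21.9 CPM. In bulk RNA, fewer myotubes and less of these transcripts per myotube cannot be told apart. Their part in the levels of the lysosome genes was not tested. Over all genes tested the libraries lay in 3 near pairs, each with 1 library of more and 1 of less Fkbp5. The root mean square differences were 0.36 log2 units for corticosterone 1 and vehicle 3, 0.36 for vehicle 1 and 2, and 0.40 for corticosterone 3 and 2, and the next pair was at 0.45. Over the members the differences of these pairs were 0.11, 0.10 and 0.151. There corticosterone 2 and 3 were not a near pair. Corticosterone 2 lay nearer to vehicle 3, at 0.128, and corticosterone 3 lay nearer to vehicle 3 and corticosterone 1, at 0.143 and 0.144.

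**Figure D4:**
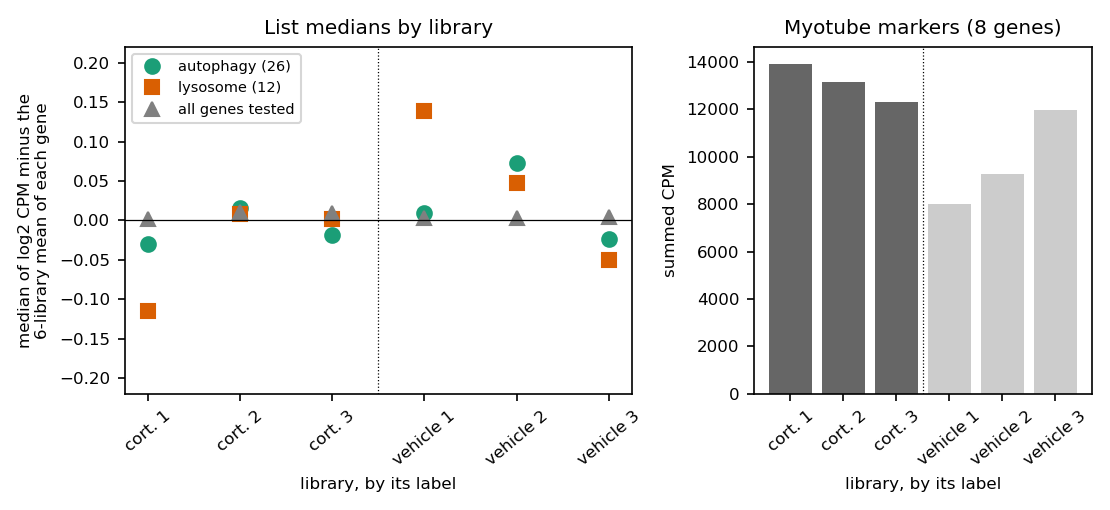
Left, the median departure of log2 CPM from each gene's 6-library mean, per library, for the 26 autophagy members, the 12 lysosome members and all genes tested. Right, the summed CPM of 8 myotube markers per library (dark for corticosterone, light for vehicle). Lysosome members are highest in vehicle 1 (0.14), where the markers are lowest (8027 CPM). They are lowest in corticosterone 1 (-0.11), where the marker sum is highest (13932 CPM). The 2 orders are not a mirror throughout. Vehicle 3 has a lower marker sum (11975 CPM) than corticosterone 2 and 3 (13172 and 12327 CPM). Its lysosome median is also lower (-0.05, against 0.01 and 0.001).

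A wider list of 122 other autophagy and lysosome genes was also looked at. Of these, 120 were tested and 2, Tfec and Rragb, had no count in any library. edgeR called 0 of the 120, DESeq2 0 and limma-voom 0. At an unadjusted edgeR p under 0.05 there were 3 higher (2.5%) and 10 lower (8.33%), against 5.55% and 6.26% of all genes. The median log2 difference was -0.03, with 70 negative (58.33%) and 50 positive, where 49.18% of all genes were negative. Without overlap by label, 6 lay higher (5%) and 12 lower (10%), against 8.41% and 8.19% of all genes. Among the members the larger share was the higher one, 10% beside 5%. Vehicle 1 and 2 were the 2 highest libraries for 30 of the 120 (25%), against 16.8% of all genes tested. In the roles shared with the lysosome members this held for 12 of 33 lumen, 2 of 11 membrane and 3 of 13 proton pump genes. The 3 smallest p among the lower genes were those of Ctns, Lamtor5 and Vmp1. Ctns, the cystine exporter of the lysosome, gave 31.1, 31.0 and 25.0 CPM in corticosterone libraries, against 36.4, 39.0 and 38.2 CPM in vehicle libraries, at a log2 difference of -0.38 ± 0.10 (SE, adjusted p by edgeR 0.364). Lamtor5, a subunit of the Ragulator that holds mTORC1 at the lysosome, gave 45.0, 45.9 and 43.5 CPM against 65.4, 61.2 and 48.8 CPM. Vmp1, a membrane protein of autophagosome formation, gave 150.5, 167 and 163 CPM against 197, 199.6 and 175 CPM. In Lamtor5 and Vmp1 vehicle 3 was again the nearest to the corticosterone libraries. Among the higher genes, Igf2r, a sorting receptor for lysosomal enzymes, gave 276, 309 and 237 CPM against 176, 195 and 247 CPM. Atp6v0a1, a pump subunit, gave 144, 157 and 145 CPM against 109, 115 and 144 CPM, and Vps11, a tethering factor, gave 58.9, 65.6 and 60.5 CPM against 52.5, 53.1 and 57.2 CPM. In the Fkbp5 arrangement 2 of the 120 lay higher (Atg4a and Laptm4b) and 4 lower (Atp6ap2, Galns, Glb1 and Rragc) without overlap, 1.67% and 3.33%, against 4.89% and 4.74% of all genes. These 6 were named after their values were seen.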

How the data were processed

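Poly(A) RNA of 6 myotube cultures went into NEBNext Ultra libraries, per the labels' protocols. The authors deposited raw read counts per gene. Tools listed in the submitters' processing notes are DESeq2 1.24.0, HTSeq 0.6.1 and HISAT2 2.0.5, with the build mm10. For annotation release and strand setting, nothing is given in the sources used here.

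Of 46983 gene identifiers, 46488 matched GENCODE M21 (GRCm38), used for lengths, coordinates and exon overlaps. Copies were other genes aligning over at least 300 bases at 95% identity. Total counts ran from 23877583 to 29928653. edgeR 4.0.16 (R 4.3.3) fitted corticosterone against vehicle by the two-sided quasi-likelihood F-test, with TMM scaling, on 14450 genes kept by filterByExpr, with Benjamini-Hochberg adjustment over them and a threshold of 0.05, without a replicate block. DESeq2 1.42.0, limma-voom (limma 3.58.1), other scalings and filters, a block and left-out libraries were alternatives. Library medians used log2 CPM with a prior count of 2. The floor of 3 counts covers counting error only. The 95% intervals come from edgeR's fit and include the spread between libraries.

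All members are named. Values per library are given for the 2 members of highest mean CPM in each of 10 roles and the 8 smallest p, and for others as stated. Members, lists and tests were chosen with earlier results of these data known. P-values measure the spread between these libraries only.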

Additional observations from a re-analysis of the deposited data

How the results depend on the processing

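No member was called under any of the 16 alternatives, replicate block included, and none of the 120 wider-list genes was. Over all genes there were 0 calls, against 138 with DESeq2, 0 to 29 with 1 library left out (29 without corticosterone 1, 11 without vehicle 3) and 3 without both libraries numbered 2. With replicate number as a block there were 0 calls; deviations of equal-numbered libraries correlated at -0.15, -0.27 and -0.32, so the numbers did not pair them. The members' median of -0.05 was -0.10 with library totals alone, a scaling that also put the median of all genes at -0.04, -0.06 without both libraries numbered 2, and -0.083 to -0.027 with 1 library left out. The lysosome median ran from -0.15 without vehicle 3 to -0.01 without corticosterone 1 or vehicle 1. Members without overlap in the Fkbp5 arrangement were 0, and 1 (Atg12) when every gene with a count was kept. Over the alternatives, the adjusted p of Hexa ran from 0.0797 (without vehicle 3) to 0.93 (without vehicle 1), that of Ulk1 from 0.201 to 0.93 and that of Map1lc3b from 0.0967 to 0.93. The 8 members with the smallest p kept their direction in all 16. They were picked by that p, and the alternatives reuse the same counts, so the kept direction is no support for it. The lowest member count in a library was 274, in Atg10. Counting error weighs more on such members than on those with high counts. The 3 libraries a group also limit the precision.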
